A study of Mus musculus with 8 samples.

Results

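The nuclear genes for subunits of the 4 respiratory chain complexes, cytochrome c and the mitochondrial ATP synthase were followed in regulatory T cells with and without Raptor, the scaffold protein of the kinase complex mTORC1. Members were all genes with a probe set of their own and a platform symbol beginning with Ndufa, Ndufb, Ndufc, Ndufs, Ndufv, Uqcr, Cox4 to Cox8 or Atp5, together with Sdha to Sdhd, Cyc1 and Cycs; assembly factors named Ndufaf and pseudogenes were left out. This gave 81 of the 17098 genes on the array, with 34 genes of complex I, 4 of complex II, 8 of complex III, 17 of complex IV, 17 of complex V (the ATP synthase) and 1 for cytochrome c. Each gene was read from its brightest probe set. Of the 81 genes, 79 were bright enough to be tested, 78 of them above the 40th percentile of the array on all 8 arrays and Ndufa4l2 on 7. Cox7a1 and Cox7b2 were under that percentile on every array.

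Total RNA of sorted CD4+CD25+ cells from spleen and peripheral lymph nodes was hybridised to 8 single-channel arrays, 4 of wild-type mice (WT) and 4 of CD4(cre)Raptor(fl/fl) mice (RaptorKO), all on the C57Bl/6J background and without treatment after the sort. In RaptorKO a Cre recombinase under Cd4 control deletes floxed Rptor, and Cd4 is active in developing T cells in general, so the deletion is not limited to regulatory cells. The labels name no Cre or floxed allele for WT and give neither age nor the number of mice behind a sample. Sorting on CD25 enriches regulatory T cells but can also take activated conventional T cells. In bulk RNA of this kind, fewer cells of a type and less RNA per cell cannot be told apart.

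Complexes I, III and IV pass electrons from NADH to oxygen and pump protons out of the matrix, complex II feeds in electrons from succinate, cytochrome c carries them from complex III to complex IV, and the ATP synthase uses the returning protons to make ATP. Complexes I, III, IV and V combine the nuclear subunits studied here with subunits encoded by mitochondrial DNA, which are not analysed here; complex II is wholly nuclear-encoded. mTORC1 is known to raise the translation of many nuclear mRNAs for mitochondrial proteins, and in muscle to act with the factors YY1 and PGC-1alpha on their transcription. The arrays measure the level of mRNA, not its translation.

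Promoters of subunit genes are known for sites of the factors NRF1, the ETS family (GABPA), YY1 and the estrogen-related receptors (ERR). The windows that follow show such letters before the start site of members among those with the smallest p-values for the genotype. Sequences are from RefSeq on build GRCm38.p6, read along the gene's strand, with the searched letters in capitals. In the windows of Ndufs6, Atp5g3 and the ETS motif of Cox6a1 the capitals are the reverse complement of the motif.
Ndufa11 (NRF1), chr17:56717692-56717721, plus strand: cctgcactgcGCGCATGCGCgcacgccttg
Atp5k (NRF1), chr5:108434430-108434459, minus strand: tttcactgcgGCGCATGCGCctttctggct
Ndufs6 (NRF1), chr13:73328483-73328512, minus strand: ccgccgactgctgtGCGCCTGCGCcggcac
Cox6a1 (NRF1), chr5:115349056-115349085, minus strand: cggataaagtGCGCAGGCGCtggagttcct
Cox6a1 (ETS), chr5:115348959-115348988, minus strand: cgtccccatttccgCTTCCGGcgcgccggt
Atp5j (YY1), chr16:84835045-84835074, minus strand: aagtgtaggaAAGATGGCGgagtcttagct
Atp5g3 (ERR), chr2:73911359-73911388, minus strand: tgttacaaagTGACCTTGAgcgtcttcccc

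RefSeq promoters (250 bases before to 50 after the start) matched 65 of the 81 subunit genes, 63 of them tested. The NRF1 consensus, seen as the capitals in the NRF1 windows and open to any base at its sixth letter, was searched on both strands like each motif here. It was in 16 of these 63 promoters (25.4%) and in 10.9% of the promoters of 9163 tested genes. YY1 (AAGATGGCG) was in 7 (11.1%, against 3.47%), ERR (TCAAGGTCA) in 2 (3.17%, against 0.371%) and ETS (CCGGAAG) in 15 (23.8%, against 19.6%). SP1 (GGGCGG) was in 42.9% against 65.3%, and the CCAAT box (CCAAT) in 41.3% against 42.2%. The median difference in expression between RaptorKO and WT was -0.070 on the log2 scale for the 16 members with NRF1 letters and -0.059 for the 47 without them. Members with ETS letters had a median of -0.066, those with YY1 letters -0.054 and the 2 with ERR letters -0.130. The motifs and the form of the NRF1 letters were settled after shares had been seen for most of 12 forms, so these shares and medians are a description. The other 6 forms gave 7.94% against 2.34% for NRF1 with the letters of the Ndufa11 window alone, 17.5% against 5.87% for the shorter GCGCATGC, 6.35% against 2.78% for a longer YY1 form, 11.1% against 9.06% for TATAAA, 7.94% against 3.50% for TGACGTCA and 0% against 1.38% for TCACNCCAC. In the same order, members with the letters of these forms had median differences of -0.182 (5 members), -0.097 (11), -0.105 (4), -0.047 (7) and -0.029 (5). No member had the last form. Members without the letters of a form had -0.062 to -0.059. The NRF1 forms overlap one another, as do the YY1 forms. A match is not a measured site.

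The array medians lay between 5.21 and 5.29 log2 units. Foxp3, the transcription factor that defines regulatory T cells, read 10.79 to 10.96 in WT, against 10.96 to 11.04 in RaptorKO. Of 6 regulatory T cell markers, Foxp3 included, 4 had a higher mean in RaptorKO and 2 a lower one. RaptorKO minus WT was 0.21 for Ikzf2 (limma adjusted p = 0.342) and -0.32 for Ctla4 (limma adjusted p = 0.169), both without overlap of the groups. It was -0.12 for Ikzf4, with overlap. The brighter of 2 Rptor probe sets read 6.75 to 7.03 in WT and 6.47 to 6.95 in RaptorKO (limma adjusted p = 0.491), and the dimmer 5.89 to 6.14 against 5.37 to 5.74. Where they lie relative to the deleted part is not known here, so they do not check the labels. Replicates 1 and 2 of both genotypes had Xist between 10.88 and 11.18 and replicates 3 and 4 between 5.04 and 5.62, with the Y-linked Kdm5d at 3.74 to 4.39 in the former and 8.22 to 8.51 in the latter. These 2 sets of replicates, whose sex the labels do not give, are compared further on; sex and anything else that replicates 1 and 2 share against 3 and 4 cannot be told apart.

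No subunit gene was called different in RaptorKO. Of the 79 tested, 0 passed the threshold (limma, Benjamini-Hochberg adjusted p under 0.05), against 224 of all 11413 genes tested, or 1.96%. In a list of 79 genes a count of 0 calls is near what that share gives. The lowest adjusted p of a member was 0.282. At an unadjusted p under 0.05 there were 3 members (3.80%), Ndufa11 and Ndufs1 lower and Cox7a2l higher, against 13% of all genes. The median difference of the 79 members, RaptorKO minus WT, was -0.059 on the log2 scale, or 1.04-fold higher in WT, and 58 members (73.4%) had a lower mean in RaptorKO. Over all genes tested the median was -0.0092 and 52.4% were lower. The median of the members depended on single arrays and on scaling: it ran from -0.114 without RaptorKO 2 to -0.0228 without RaptorKO 3, was -0.108 without WT 2, and was -0.0168 after quantile normalization. Single differences ran from -0.35 to 0.21.

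The precision of the arrays limited what could be seen to differences of moderate size. The 95% interval of the difference lay within -0.5 and 0.5 on the log2 scale, or 1.41-fold either way, for 74 of the 79 members (93.7%), compared with 74.6% of all genes. For Ndufa11, Uqcrb, Uqcrq, Atp5g3 and Atp5pb the interval reached below -0.5, and for 0 members it reached above 0.5. The groups did not overlap for Cox5b and Cox6a1, both lower in RaptorKO (2.53% of members, against 5.09% of all genes), and for Cox7a2l, higher in RaptorKO (1.27%, against 3.73%). The shares of the members rest on 2 genes and 1 gene, too few to set them apart from those of all genes.

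**Figure D1:**
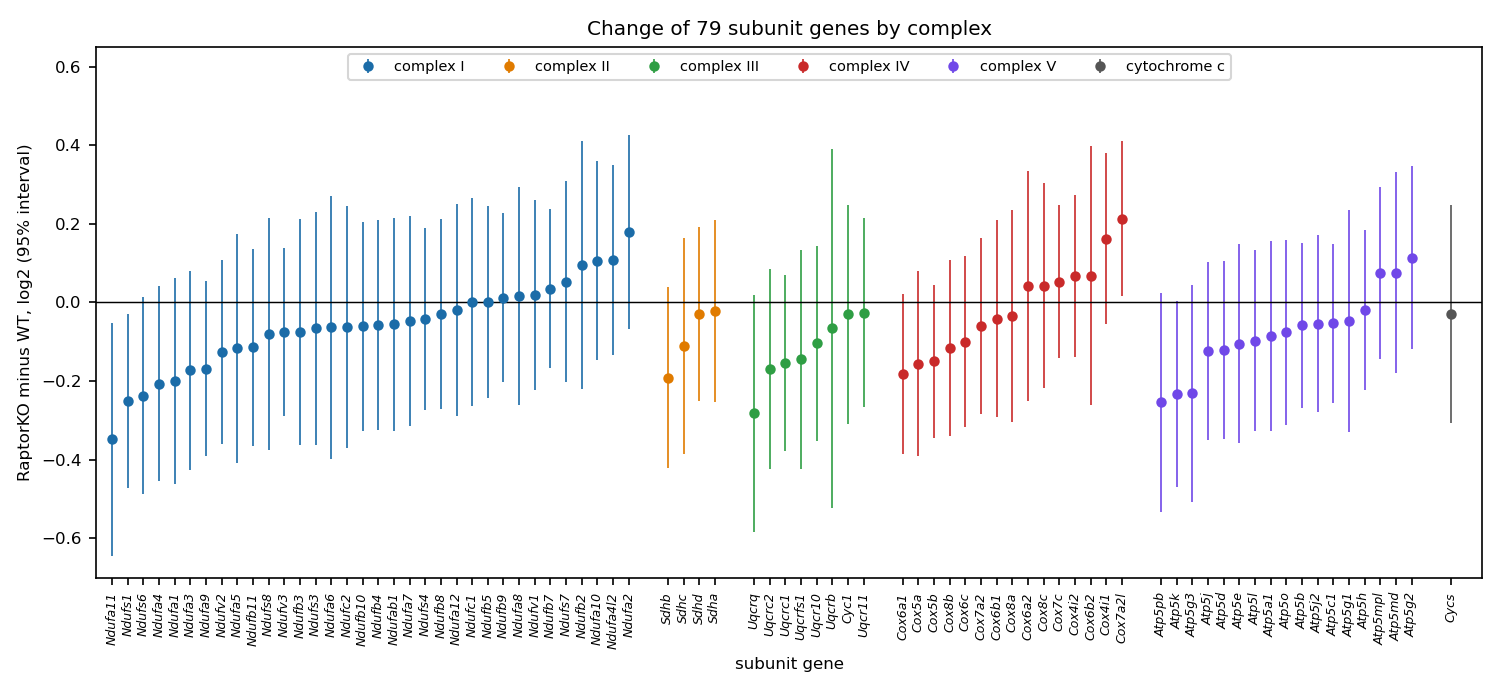
Difference between RaptorKO and WT (log2, vertical axis) for each of the 79 tested subunit genes (horizontal axis, grouped by complex and sorted), as points with 95% intervals from limma, 4 arrays in each group. Most points lie just under 0, between -0.35 for Ndufa11 and 0.21 for Cox7a2l, and 74 of the 79 intervals stay within -0.5 and 0.5.

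Complex I, the NADH dehydrogenase, had 23 of 34 members with a lower mean in RaptorKO, and a median difference of -0.058. Ndufa11, a membrane-arm subunit, read 8.88, 9.16, 9.07 and 8.94 in WT 1 to 4 and 8.87, 8.91, 8.38 and 8.50 in RaptorKO 1 to 4. RaptorKO 3 and 4 were well below every WT array. RaptorKO 1 was just under the lowest of them and RaptorKO 2 just above it. The difference was -0.35 (SE 0.14, adjusted p = 0.282, 95% interval -0.65 to -0.052). A dimmer Ndufa11 probe set gave -0.0056 (limma over all probe sets, adjusted p = 0.994), so the difference rests on the brighter one. Ndufs1, the large iron-sulfur core subunit of the NADH-oxidising arm, read 7.16, 7.19, 7.30 and 7.23 in WT and 6.85, 7.17, 6.95 and 6.91 in RaptorKO; the difference was -0.25 (SE 0.10, adjusted p = 0.300). RaptorKO 2 lay inside the WT range and the other RaptorKO arrays below it.

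Ndufs6, a zinc-binding subunit of the same arm, read 9.32 to 9.48 in WT and 8.99 to 9.43 in RaptorKO, a difference of -0.24 (adjusted p = 0.413). Ndufa4, named as a complex I subunit but since found to belong to complex IV, had 10.12 to 10.30 in WT, 10.15 and 10.17 in RaptorKO 1 and 2, and 9.80 and 9.85 in RaptorKO 3 and 4, a difference of -0.21 (adjusted p = 0.501). For both, RaptorKO 3 and 4 were the lowest arrays. The 6 core subunits measured, Ndufs1, Ndufs3, Ndufs7, Ndufs8, Ndufv1 and Ndufv2, which hold the flavin and iron-sulfur clusters or sit beside them, had a median of -0.073. The 27 supernumerary subunits had -0.057. Ndufa2 (0.18, adjusted p = 0.575) was the highest of the complex and is named after its value was seen. Ndufa4l2, a hypoxia-induced relative of Ndufa4, read between 4.68 and 5.12 on all arrays.

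All 4 members of complex II, succinate dehydrogenase, had lower means in RaptorKO, with differences from -0.19 to -0.021, none called; after quantile normalization Sdha (0.030) and Sdhd (0.0069) had the opposite sign. Sdhb, the iron-sulfur subunit, read 8.80, 8.69, 8.79 and 9.04 in WT and 8.65, 8.70, 8.70 and 8.50 in RaptorKO; the difference was -0.19 (SE 0.11, adjusted p = 0.501), with overlapping groups. Sdha, the flavoprotein that oxidises succinate, read 9.54 ± 0.12 (SD, n = 4) in WT and 9.52 ± 0.12 in RaptorKO. Its next brightest probe set had the opposite sign, 0.15. The membrane anchors Sdhc and Sdhd differed by -0.11 and -0.029.

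In complex III, the cytochrome bc1 complex, 8 of 8 members had a lower mean, with a median of -0.12. Uqcrq, a small subunit of the membrane part, read 8.93, 8.90, 9.02 and 8.95 in WT and 8.80, 9.01, 8.35 and 8.51 in RaptorKO; the difference was -0.28 (SE 0.14, adjusted p = 0.423). The WT arrays were tightly grouped and RaptorKO 3 and 4 stood apart under them. Dimmer Uqcrq probe sets gave 0.26 and 0.0036, so the sign rests on the brightest one.

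The core proteins Uqcrc1 and Uqcrc2 differed by -0.15 and -0.17, and the Rieske iron-sulfur protein Uqcrfs1, which takes electrons from ubiquinol, by -0.14 (adjusted p = 0.733). Cyc1, the cytochrome c1 that hands electrons on, read 8.12 ± 0.23 in WT and 8.09 ± 0.14 in RaptorKO (SD, n = 4). Cycs, the soluble carrier cytochrome c, which also triggers apoptosis when released, read 9.43, 9.15, 9.26 and 9.13 in WT and 9.33, 9.44, 9.14 and 8.93 in RaptorKO. Its difference of -0.029 (adjusted p = 0.959) was smaller than the spread of either group and turned to 0.026 after quantile normalization.

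Complex IV, cytochrome c oxidase, had 8 of 15 tested members lower and a median of -0.035. Without its tissue-restricted isoforms 7 of 10 were lower and the median was -0.050. The sign of the median was not stable: it was 0.013 after quantile normalization and 0.0018 when each gene's probe sets were averaged. Cox7a2l, known as a factor that joins complexes III and IV in supercomplexes and present in C57BL/6 mice in a shortened form, was higher on average in RaptorKO, with 11.12, 11.14, 11.01 and 11.19 in WT and 11.32, 11.36, 11.31 and 11.31 in RaptorKO. Every RaptorKO array was above every WT array, and the spread among RaptorKO arrays (SD 0.025) was the smaller. The difference was 0.21 (SE 0.09, adjusted p = 0.335), or 1.16-fold, and it was 0.21 both within replicates 1 and 2 and within replicates 3 and 4. Its other probe sets gave 0.29 and 0.24 (limma over all probe sets, adjusted p = 0.195 and 0.308). It passed the threshold in 1 of 24 alternatives, with an intensity trend in the variance (limma adjusted p = 0.0363), and the adjusted p ran up to 0.622.

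Cox6a1 and Cox5b, small subunits of the oxidase, had lower means. Cox6a1 read 10.60, 10.55, 10.63 and 10.66 in WT and 10.50, 10.52, 10.32 and 10.38 in RaptorKO; the difference was -0.18 (SE 0.093, adjusted p = 0.454). Cox5b read 10.77, 10.78, 10.77 and 10.83 in WT and 10.65, 10.68, 10.68 and 10.54 in RaptorKO, a difference of -0.15 (adjusted p = 0.547). Neither pair of groups overlapped. For both genes the next brightest probe set gave a similar difference, -0.15, but there the groups overlapped. In it RaptorKO 2 read 10.18 for Cox6a1 and 10.41 for Cox5b, above WT 2 at 10.07 and 10.32. Cox4i1, the main isoform of the regulatory subunit IV, differed by 0.16 (adjusted p = 0.558), with RaptorKO 1 and 2 at 10.27 and 10.32 and RaptorKO 3 and 4 at 10.05 and 10.09, against 9.95 to 10.09 in WT.

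Several subunits of complex IV have a common and a tissue-restricted isoform; probe sets differ in affinity, so levels were compared between genotypes and not between isoforms. Cox4i2, known from lung, read 4.75 to 4.93 in WT and 4.82 to 4.99 in RaptorKO. The heart and muscle isoforms Cox6a2, Cox7a1 and Cox8b read 5.59 ± 0.072, 3.93 ± 0.32 and 6.11 ± 0.084 in WT and 5.63 ± 0.28, 4.03 ± 0.19 and 5.99 ± 0.13 in RaptorKO (SD, n = 4). Testis-type Cox6b2 read 5.45 ± 0.10 and 5.52 ± 0.33. The common forms Cox6b1, Cox7a2 and Cox8a differed between genotypes by -0.041, -0.059 and -0.035, and Cox6b1 (0.0074) and Cox8a (0.013) turned sign after quantile normalization. No isoform of a pair was called.

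In complex V, 14 of 17 members had a lower mean, with a median of -0.076. Atp5k, subunit e of the membrane part, which helps the enzyme form dimers, read 9.87, 9.81, 9.96 and 9.84 in WT and 9.58, 9.89, 9.49 and 9.59 in RaptorKO; the difference was -0.23 (SE 0.11, adjusted p = 0.392). RaptorKO 2 lay inside the WT range and the other RaptorKO arrays under it. Atp5pb, subunit b of the peripheral stalk that keeps the head from turning, differed by -0.25 (SE 0.13, adjusted p = 0.441), with 8.88 to 9.27 in WT and 8.50 to 8.94 in RaptorKO. Atp5j, another stalk subunit, differed by -0.12.

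The proton-driven c ring is made from Atp5g1, Atp5g2 and Atp5g3, which encode the same mature protein behind different targeting sequences. Atp5g3 read 10.33, 9.86, 10.25 and 10.28 in WT and 9.92, 10.15, 9.91 and 9.81 in RaptorKO; the difference was -0.23 (SE 0.13, adjusted p = 0.497). WT 2 was apart from the other WT arrays and inside the RaptorKO range. Atp5g2 differed by 0.11 (adjusted p = 0.754), and Atp5g1 by -0.047 (adjusted p = 0.936). The 5 subunits of the catalytic head and central stalk, Atp5a1, Atp5b, Atp5c1, Atp5d and Atp5e, lay between -0.12 and -0.053 (median -0.085).

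**Figure D2:**
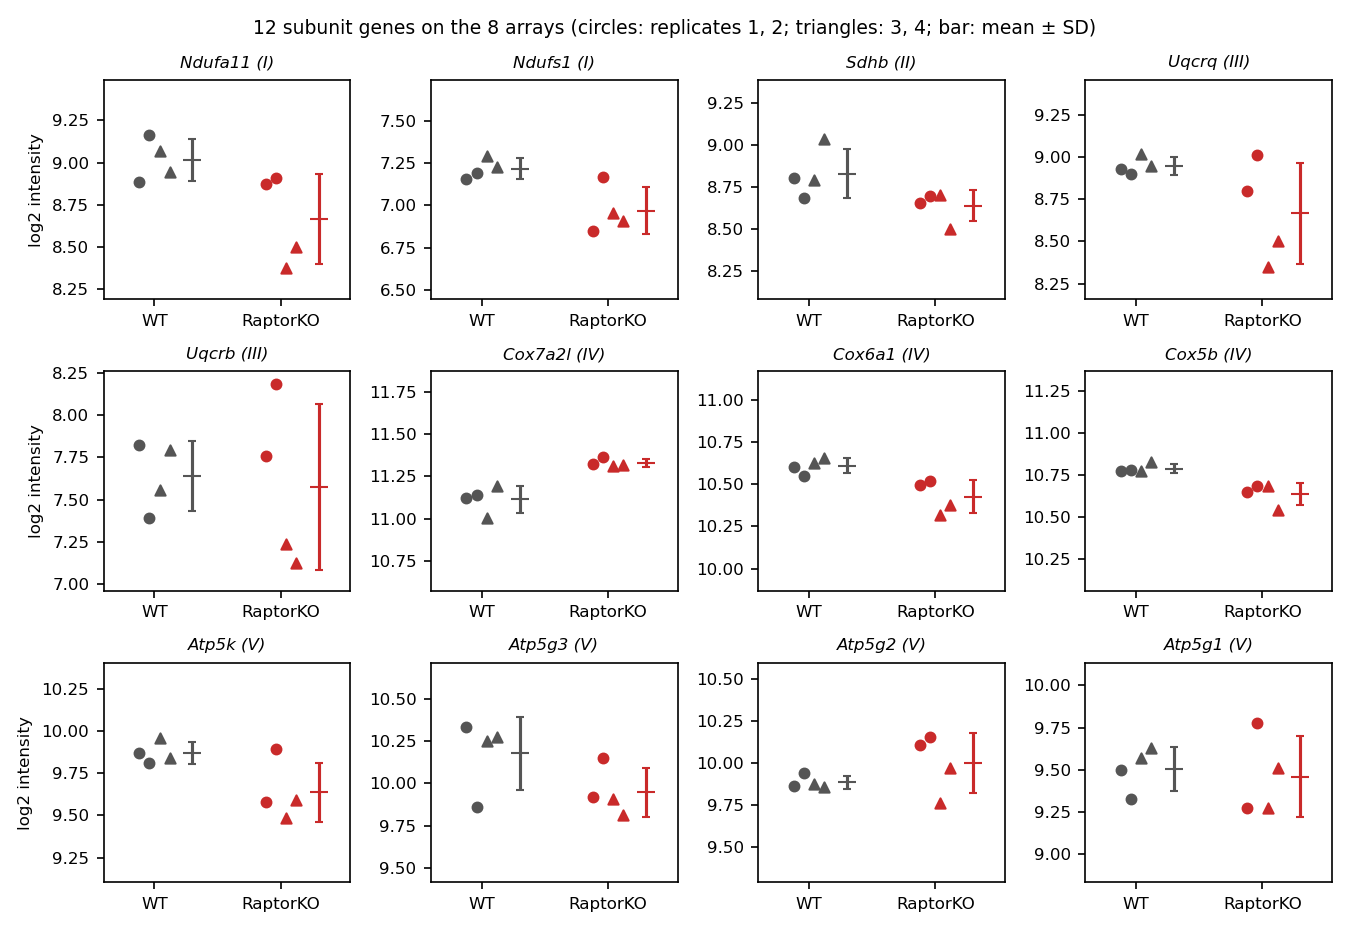
Log2 intensity (vertical axis, the same span in every panel) of 12 subunit genes in WT and RaptorKO, 1 point per array, with circles for replicates 1 and 2, triangles for replicates 3 and 4, and a bar for mean ± SD of 4 arrays. The triangles of RaptorKO sit lowest for Ndufa11, Uqcrq and Uqcrb, while for Cox7a2l all 4 RaptorKO points lie above all WT points.

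The subunit genes varied together from array to array. Over the 8 arrays the median Pearson correlation between 2 tested subunit genes was 0.42 (3081 pairs, 81.5% positive), and 0.49 without the tissue-restricted isoforms; over pairs of all genes tested it was 0.025. These pairs share arrays, genotype and normalization, so this is a description. Each gene was then set against its own mean over the 8 arrays, and the median deviation of the 79 genes was 0.063, -0.081, 0.067 and 0.073 on WT 1 to 4 and -0.014, 0.12, -0.14 and -0.097 on RaptorKO 1 to 4. WT 2 was the lowest WT array and RaptorKO 2 the highest of all 8. On RaptorKO 3 there were 67 of 79 members below their own mean, and on RaptorKO 2 there were 13. Over all genes tested the median deviations were smaller, from -0.047 on RaptorKO 3 to 0.050 on RaptorKO 2.

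**Figure D3:**
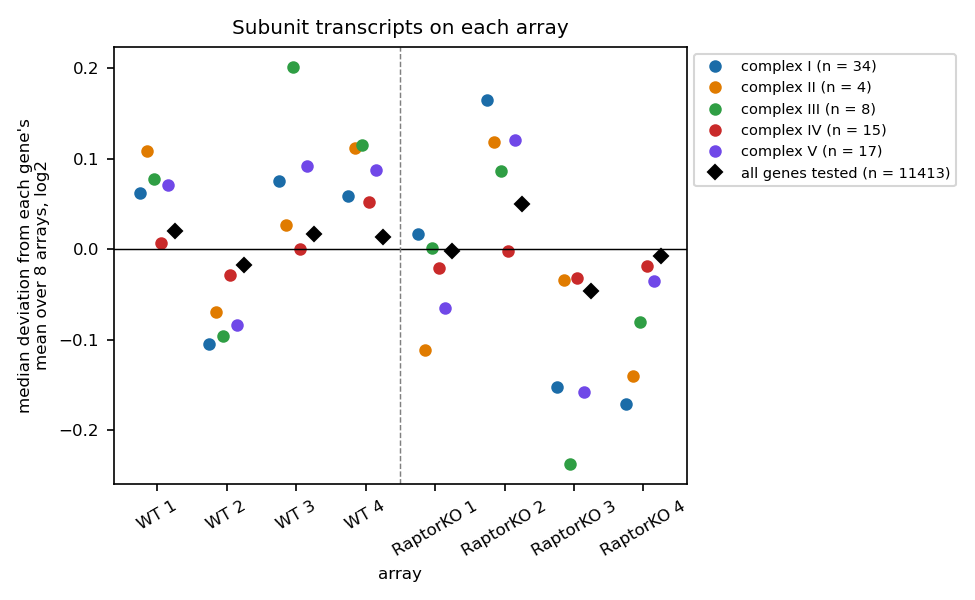
Median deviation of the tested genes of each complex from their own means over 8 arrays (log2, vertical axis) on each array (horizontal axis; WT left and RaptorKO right of the dashed line), with all genes tested as black diamonds. Complexes I, III and V are high on WT 3 and RaptorKO 2 and low on WT 2 and RaptorKO 3. Complex IV stays within 0.052 of 0 on all arrays, but 5 of its 15 tested genes are tissue-restricted isoforms.

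The median difference between genotypes was positive within replicates 1 and 2 and negative within replicates 3 and 4. An earlier analysis of these arrays had already found opposite signs for oxidative phosphorylation genes in these sets. The values here therefore describe that pattern and do not test it. Within replicates 1 and 2 the median of the 79 members was 0.064, with 52 members higher in RaptorKO, and within replicates 3 and 4 it was -0.21, with 70 members lower. There were 45 members higher in the former and lower in the latter, 25 lower in both and 7 higher in both. The positive value came with the replicate 2 arrays: as given above, the median deviation was 0.063 on WT 1 and -0.014 on RaptorKO 1, but -0.081 on WT 2 and 0.12 on RaptorKO 2. Over all genes tested the median difference was 0.021 within replicates 1 and 2, with 53.6% of genes higher in RaptorKO. Within replicates 3 and 4 it was -0.041, with 56.7% lower. For the members those shares were 65.8% and 88.6%. The change of sign was not limited to the subunits. Among the pathway lists described further on, the medians were 0.115 and -0.062 for complex I assembly factors. For assembly factors of the other complexes they were 0.069 and -0.084, and for mitochondrial DNA transcription and upkeep 0.184 and -0.151. Coenzyme Q synthesis had 0.230 and -0.043, and the membrane carriers 0.180 and -0.113. Regulators of subunit genes were positive in both sets, 0.087 and 0.055. By complex, the medians within replicates 1 and 2 and within replicates 3 and 4 were 0.13 and -0.24 for complex I. They were 0.0040 and -0.16 for complex II, and 0.056 and -0.28 for complex III. For complex IV they were 0.032 and -0.068, and for complex V 0.037 and -0.21. Without its tissue-restricted isoforms the 10 genes of complex IV had 0.040 and -0.15. The 5 tested isoforms had -0.13 and 0.052. In RaptorKO the mean of replicates 3 and 4 was below that of replicates 1 and 2 for 72 members (median -0.19, against -0.064 over all genes), and in WT it was above for 60 (median 0.088, against 0.018).

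The difference between the sets was tested gene by gene and was not called for any subunit. Because the opposite signs were known before the sets were compared, the share of negative interactions restates that pattern. The interaction of genotype with replicate set was negative for 72 of 79 members (91.1%), against 61.1% of all genes, with medians of -0.28 and -0.091. It passed for 0 members and for 0 of all 11413 genes (0%; limma, Benjamini-Hochberg), and at an unadjusted p under 0.05 for 9 members (11.4%), the same share as of all genes (1304 genes, 11.4%). Uqcrb, a small ubiquinone-binding subunit of complex III, had the smallest p. It read 7.83, 7.39, 7.56 and 7.80 in WT and 7.76, 8.19, 7.24 and 7.12 in RaptorKO, so RaptorKO spanned over 1 unit and enclosed WT. Its differences were 0.36 and -0.50, and the interaction was -0.86 (SE 0.27, adjusted p = 0.350). Uqcrq (-0.55, SE 0.19, adjusted p = 0.371) and Ndufb11, a membrane-arm subunit of complex I (-0.49, SE 0.18, adjusted p = 0.372), came next.

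The contrast was smaller without the replicate 2 arrays. With both replicate 2 arrays left out, a choice made after seeing the data, the median difference of all members was -0.17 and 66 members were lower, still with 0 called, and the interaction was negative for 60 members. One array per genotype then stands for the first set, so that interaction takes its spread from replicates 3 and 4 alone and is given as a value only.

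**Figure D4:**
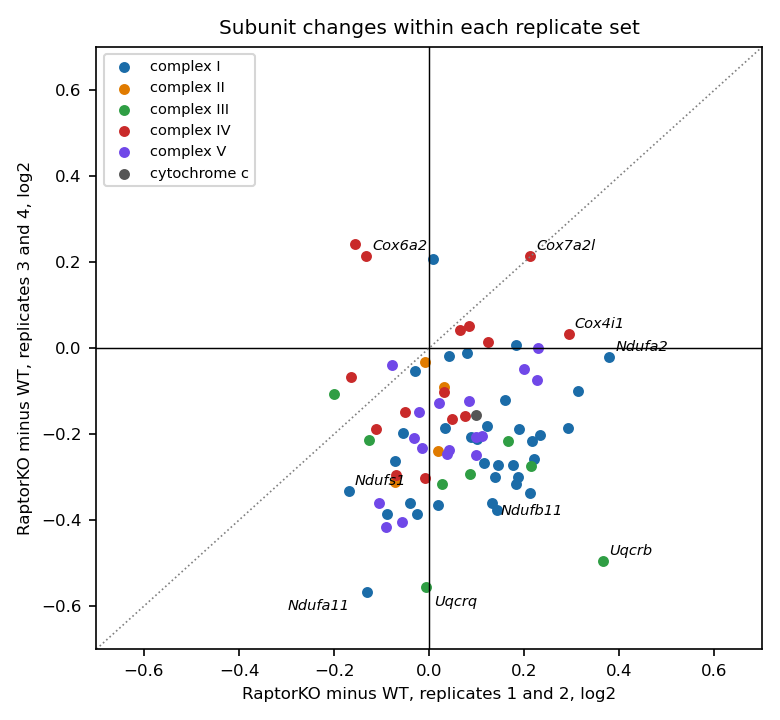
Difference between RaptorKO and WT (log2) of each tested subunit gene within replicates 1 and 2 (horizontal axis) and within replicates 3 and 4 (vertical axis), 2 arrays per genotype in each, with points coloured by complex and equal differences on the dotted line. Most points lie right of 0 and below 0, with Uqcrb farthest from the dotted line and Cox7a2l on it.

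Markers of other cells also differed between arrays. The mean of each of the 10 macrophage markers was higher in RaptorKO. Their average log2 level was 4.88 to 5.68 in WT and 5.41 to 5.99 in RaptorKO. Adgre1 was under the filter's percentile on every array, Cd14 exceeded it on 2 and Fcgr1 on 1, so these were not tested. The average macrophage level was higher in replicates 3 and 4 than in replicates 1 and 2 of either genotype. The CD8 T cell markers Cd8a and Cd8b1 averaged 6.32 to 8.07 in WT and 6.08 to 7.03 in RaptorKO. The 5 T cell genes measured, from the antigen receptor and its signalling, were all lower. Their mean level was 10.66 to 10.87 in WT and 10.50 to 10.64 in RaptorKO. Cd5 differed by -0.48 (limma adjusted p = 0.0592) and Cd4 by -0.22 (limma adjusted p = 0.362), both without overlap of the groups. For Cd3d, Cd3e and Cd3g the groups overlapped. B cell markers averaged 5.22 to 6.57 in WT, against 5.82 to 6.34 in RaptorKO. Among erythroid genes Hba-a1, an alpha globin, read 6.68, 7.47, 7.67 and 8.55 in WT and 8.64, 9.19, 7.97 and 8.99 in RaptorKO (difference 1.10, limma adjusted p = 0.159), by replicate set 1.84 (1 and 2) and 0.37 (3 and 4), while Alas2 differed by -0.079. The neutrophil gene S100a9 differed by 0.80 and -0.42 in the same sets, and S100a8 by 0.56 and -0.38. The 4 conventional CD4 T cell markers measured averaged 8.96 to 9.23 and 8.87 to 9.21. Of these lists no tested member was called. With the macrophage level as a covariate the median difference of the subunits was -0.0405 and 53 were lower; the part of the other lists in the subunit values was not tested. The 3' minus 5' signal of Gapdh, a sign of RNA integrity, was 1.24 ± 0.10 in WT and 1.16 ± 0.083 in RaptorKO, and that of Actb was -0.59 ± 0.040 and -0.65 ± 0.027 (SD, n = 4).

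Other genes of the pathway gave no call either. The limma test called 0 of 12 complex I assembly factors, 0 of 26 assembly factors of the other complexes, 0 of 11 genes of mitochondrial DNA transcription and upkeep, 0 of 9 regulators of subunit genes, 0 of 10 genes of coenzyme Q synthesis and 0 of 8 inner and outer membrane carriers. Their medians over all arrays were 0.0052, 0.011, -0.043, 0.14, 0.096 and 0.053, against -0.059 for the subunits. The medians of these lists by replicate set are given above. At an unadjusted p under 0.05 the counts were 2, 0, 1, 1, 1 and 1. Over all genes the shares were 1.96% and 13%, so in lists of this size a count of 0 calls is near what the background gives.

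Among these pathway lists Ppargc1b, a coactivator of the PGC-1 family that drives subunit genes, came nearest to a call. It read 6.23, 5.69, 5.99 and 5.65 in WT and 6.60, 6.46, 6.26 and 6.60 in RaptorKO; the difference was 0.59 (SE 0.14, adjusted p = 0.0609) without overlap of the groups and of like size in both sets of replicates (0.57 and 0.61). Nfe2l2, the regulator of oxidative stress genes, differed by 0.22 (adjusted p = 0.433). Coq4, needed to make coenzyme Q, read 5.78 to 5.96 in WT and 6.13 to 6.56 in RaptorKO, a difference of 0.41 (adjusted p = 0.110), and Coq9 differed by 0.14.

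Tfam, which packs and transcribes mitochondrial DNA, read 7.03 to 7.17 in WT and 6.71 to 7.02 in RaptorKO (-0.22, adjusted p = 0.384), while the mitochondrial DNA helicase Twnk read 6.86 to 7.18 and 7.22 to 7.47 (0.30, adjusted p = 0.249). The adenine nucleotide carriers, which exchange ADP for ATP, differed in opposite directions, Slc25a5 by -0.25 (adjusted p = 0.360) and Slc25a4 by 0.24 (adjusted p = 0.416). Of the assembly factors, Nubpl and Ndufaf6, both for complex I, differed by 0.30 and 0.23 (adjusted p = 0.329 and 0.301), Sdhaf1 for complex II by 0.26 and Uqcc2 for complex III by -0.26.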

How the data were processed

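The deposited values are log2 intensities per probe set, which the authors made with RMA, a method that equalises intensity distributions and summarises probes, as the submitters' processing notes name it; no version is given in the sources used here. RMA removes differences in total signal between arrays. Of 45141 probe sets, 28898 list 1 gene, 551 several and 15692 none; 28689 matched RefSeq (GRCm38.p6) by Entrez ID. Genes whose probe set was above the 40th percentile of 4 or more arrays were tested (11413). RaptorKO was compared with WT, 4 arrays each, with limma 3.58.1 in R 4.3.3 (lmFit, eBayes, Benjamini-Hochberg over all genes), without covariates; the interaction added replicate set. Nothing states that samples came from separate animals, so p-values reflect only the spread between samples, possibly technical. Fits were tested on simulated data. Complexes were summarised by counts and medians. Members, lists and sets were chosen with earlier results of these data known. Named genes were the 4 smallest p of complexes I, III, IV and V, complex II, Cyc1, Cycs, the 3 smallest interaction p, isoform sets, and 2 of each pathway list. The role groups within complexes, the 0.5 margin for intervals, the 12 plotted genes, the motifs and 3 alternatives were chosen after values had been seen. The number of arrays limits precision. Figures used matplotlib 3.10.9.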

Additional observations from a re-analysis of the deposited data

Results flagged for a closer look

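In 84 groups of 4 arrays, 5 held 1 array set far apart from the rest by Dixon's test; chance gives about 1 in 20. WT 4 was above the other WT arrays for Cox5b, at 10.83, and for Cox7a2, at 10.47. WT 2 was below the other WT arrays in the median deviation of all subunits, at -0.081, of complex I, at -0.11, and of complex V, at -0.083. Complexes I and V are part of the whole, so these 3 values are not separate.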

How the results depend on the processing

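Subunit genes called stayed at 0 in 23 of 24 alternatives; the intensity trend called 1, Cox7a2l, and 370 genes in all. Of 34 named members, 18 kept their sign throughout. Where a value changed, the cause was not tested.

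The median of complex IV was 0.0018 with the mean of all probe sets, -0.0032 without a filter, 0.013 after quantile normalization and -0.085 with array weights. Replicates 1 and 2 alone gave 9 genes called, 27 subunits lower, and medians of 0.064 for all subunits, 0.13 for complex I, 0.056 for III, 0.032 for IV and 0.037 for V. Replicates 3 and 4 alone gave 85 genes called and medians of -0.21, -0.24, -0.28, -0.068 and -0.21 in the same order. These fits have fewer samples. Without both replicate 2 arrays, chosen after seeing the data, medians were -0.17 for all subunits, -0.19 for complex II, -0.061 for IV and -0.18 for V. Leaving out 1 array at a time gave 101 to 257 genes called, 50 to 65 subunits lower, and medians of -0.114 to -0.0228 for all subunits, -0.1275 to -0.0083 for complex I, -0.1453 to -0.0391 for II, -0.1897 to -0.0533 for III, -0.075 to 0.029 for IV and -0.1286 to -0.0313 for V, and 0 to 1 genes called by the interaction, the 1 without WT 2. The count of genes called was 125, 122 and 101 without WT 1, 3 and 4, and 136 and 147 without RaptorKO 1 and 3.

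Differences that changed sign were, with replicates 1 and 2 alone, Uqcrfs1 0.028, Sdhc 0.018, Sdhd 0.032, Cyc1 0.21, Cycs 0.0985, Uqcrb 0.365, Ndufb11 0.13, Atp5g1 0.11, Cox6a2 -0.13, Cox6b1 0.075, Cox7a2 0.047 and Cox8a 0.032. With replicates 3 and 4 alone it was Atp5g2, at -0.0010. With the macrophage covariate they were Sdha 0.089, Cycs 0.1135, Uqcrb 0.14, Cox6a2 -0.1095 and Cox6b1 0.030. With the mean of all probe sets they were Uqcrq 0.032, Sdha 0.015 and Cox8a 0.0018. After quantile normalization they were Sdha 0.030, Sdhd 0.0069, Cycs 0.026, Cox6b1 0.0074 and Cox8a 0.013. Leaving out 1 array at a time, Sdha ran from -0.075 to 0.0346, Sdhd from -0.0901 to 0.013, Cyc1 from -0.1284 to 0.0553, Cycs from -0.1054 to 0.0648, Uqcrb from -0.2686 to 0.086, Atp5g1 from -0.1526 to 0.0155, Cox6a2 from -0.0455 to 0.1559, Cox6b1 from -0.1172 to 0.0107, Cox6b2 from -0.0164 to 0.2218 and Cox8a from -0.1177 to 0.0299.

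Interactions of named members changed sign in 42 of 676 alternatives. With arrays centred on the 75th percentile they were Uqcrc2 0.0399, Cox5b 0.0508, Sdha 0.1057, Sdhd 0.0058, Cox4i2 0.0968 and Cox6b2 0.0185. Centring on the median gave Cox7a2l -0.0637. The mean of all probe sets gave Ndufa11 0.0374 and Cox7a2l -0.0806. Quantile normalization gave Uqcrc2 0.0567, Sdha 0.1271, Sdhd 0.0107 and Cox8a 0.0050. Without both replicate 2 arrays, where the first set has 1 array per genotype, they were Uqcrc2 0.0952, Atp5g3 0.0071, Sdha 0.0172, Sdhc 0.1501, Sdhd 0.1073, Atp5g1 0.0201, Cox6b1 0.013, Cox8a 0.1412 and Cox8b -0.0228. Leaving out 1 array at a time, Uqcrc1 ran from -0.0423 to 0.2307, Uqcrc2 from -0.2427 to 0.0679, Cox7a2l from -0.094 to 0.0949, Sdha from -0.1013 to 0.058, Sdhd from -0.2762 to 0.0331, Cox4i2 from -0.1142 to 0.0531, Cox6b2 from -0.4579 to 0.2402, Cox8a from -0.3239 to 0.0581 and Cox8b from -0.0373 to 0.2282.

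The labels number replicates 1 to 4 in both genotypes, but same-numbered arrays did not deviate together (correlations 0.157, -0.153, 0.106 and 0.026), so the numbers were not taken as pairs. With the replicate block 175 genes were called in place of 224, and 0 subunits; the subunit median was -0.0591. Of the tissue-restricted isoforms, Cox7a1 and Cox7b2 failed the filter on every array, and Cox4i2 and Ndufa4l2 lay near it.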
